A study of Mus musculus with 2 samples.

Results

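Transcripts of 7 genes that make, break down, carry and sense adenosine were followed across the immune cells of a mouse brain tumour, and between 2 libraries, 1 from mice on control water and 1 from mice given metformin. The genes were chosen by name: Nt5e, Ada, Adk, Slc29a1, Adora2a, Adora2b and Adora3, 7 of the 31053 genes counted. All C57BL/6 mice had received GL261 cells, an established mouse glioma line, by injection into the brain. On day 20 the tumour region was cut out, leucocytes with high surface CD45 were sorted, and droplet libraries were made with the 10x 3' version 3 kit. The control group drank DW control water and the other group drank water with metformin, an oral antidiabetic drug. How many mice went into each library, their sex and age, the metformin dose and the sort gates are not given in the sources used here. With 1 library per group there is no test between the groups. Every interval below is a 95% counting interval, which does not hold the differences between mice.

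Adenosine outside cells comes largely from ATP that dying or stressed cells release. The surface enzyme CD39 (Entpd1) removes phosphates down to AMP, and CD73 (Nt5e) takes off the last one. Adenosine is then carried into cells, mostly by the equilibrative transporter ENT1 (Slc29a1), turned into inosine by adenosine deaminase (Ada) or back into AMP by adenosine kinase (Adk). The receptors encoded by Adora2a and Adora2b raise cyclic AMP and are known to restrain T cell and NK cell activity, whereas the receptor encoded by Adora3 couples to inhibitory G proteins.

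Stretches of 250 bases upstream of the RefSeq start are printed for the receptor genes Adora2b and Adora3, because their highest levels of the compared classes were in Arg1 macrophages and in microglia. The build is GRCm38.p6, 5′ to 3′ on the gene's own strand. Adora2b is shown from chr11:62248734-62248983 (plus strand) and Adora3 from chr3:105904171-105904420 (plus strand). Capitals mark matches to the motifs searched on both strands, which were the hypoxia response core in the forms ACGTG and then GCGTG, the PU.1 motif GAGGAAGT, the cyclic AMP response element TGACGTCA, and AGATAA for the factors of the GATA family. None of these motifs overlaps another in the printed stretches.
Adora2b: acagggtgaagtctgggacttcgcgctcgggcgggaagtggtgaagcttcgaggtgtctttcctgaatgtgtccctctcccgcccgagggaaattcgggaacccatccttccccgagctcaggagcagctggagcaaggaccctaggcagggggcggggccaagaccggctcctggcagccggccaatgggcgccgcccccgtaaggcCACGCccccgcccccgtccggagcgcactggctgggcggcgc
Adora3: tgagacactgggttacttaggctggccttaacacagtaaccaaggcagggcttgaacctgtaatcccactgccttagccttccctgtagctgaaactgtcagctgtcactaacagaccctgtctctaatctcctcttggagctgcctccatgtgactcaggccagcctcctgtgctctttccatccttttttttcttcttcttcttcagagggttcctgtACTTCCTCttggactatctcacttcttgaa
The capitals in Adora2b are GCGTG read on the other strand, 42 bases upstream of the start. In Adora3 they are GAGGAAGT read on the other strand, 30 bases upstream. Of 32851 RefSeq windows of 300 bases (250 before and 50 after a start), 32.4% held GCGTG and 3.20% held GAGGAAGT. The match is a description of letters and not a binding site. Windows were found for 6 of the 7 genes, and Adora2a had none.

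The control matrix held 6174 cell barcodes and 49651404 unique molecular identifiers (UMIs, 1 per captured transcript), and the metformin matrix 5473 barcodes and 47142356 UMIs. After filtering, 5376 and 4570 cells were kept, with medians of 7296.5 and 7925.5 UMIs, and 9 barcodes occurred in both libraries. Clustering gave 36 clusters and 23 named classes, of which 15 held at least 50 cells in each library and are compared here. Each class name stands for cells that look like that type by marker genes, rebuilt here, and may differ from the study's own classes. The compared classes covered 92.6% of kept control cells and 92.1% of kept metformin cells. Levels are given as CPM, the usual depth-scaled count: the UMIs of the gene over all UMIs of the class, written as control and then metformin. Because sorted cells with high CD45 were studied, the numbers of cells in a class also follow the sort.

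Over the kept cells the control and metformin libraries held 2239 and 1673 UMIs of Nt5e, 1753 and 1459 of Adora3, 1680 and 1405 of Slc29a1, and 1038 and 1056 of Adk. Adora2a had 737 and 926 UMIs, Ada 264 and 277, and Adora2b 197 and 233. A gene was called too sparse in a class when neither library had 20 UMIs of it there. That was so for 43 of the 105 pairs of gene and class. Slc29a1 was measurable in all 15 classes and Adk in 13. Nt5e was too sparse in 5 classes: the 3 microglia classes, the Pf4/Mrc1 macrophages and conventional dendritic cells. Adora2a was too sparse in those 5 and in naive-type T cells. Ada was too sparse in 10 classes, Adora2b in 12 and Adora3 in 8, regulatory T cells, NK cells and B cells among the 8.

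**Figure D1:**
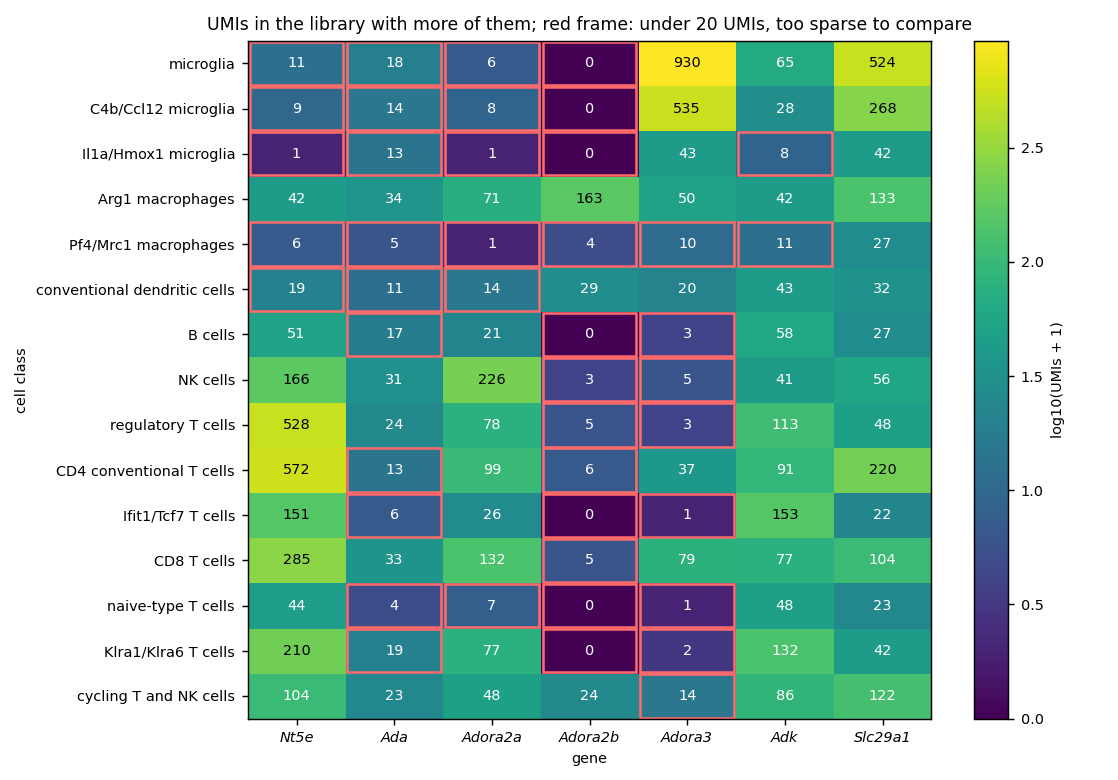
UMIs of each of the 7 genes (columns) in each of the 15 compared classes (rows), as the count in the library with more of them; red frames mark the 43 pairs with fewer than 20 UMIs in both libraries. Slc29a1 has no red frame, and Adora2b has 12.

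Nt5e (chr9:88327197-88372092, GRCm38, plus strand), the gene of the enzyme that makes adenosine from AMP, was highest in regulatory T cells. These cells held 528 and 416 UMIs, or 241 and 180 CPM in the control and metformin libraries. CD4 conventional T cells followed with 144 and 113 CPM, then Ifit1/Tcf7 T cells with 114 and 83.4 CPM and Klra1/Klra6 T cells with 93.1 and 73.4 CPM. The regulatory T cell values lay above both values of the CD4 conventional T cells, while the next 3 classes each overlapped with the one beside it among the 3.

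A step down separated those T cells from CD8 T cells (55.1 and 48.9 CPM), cycling T and NK cells (50.7 and 49.2 CPM), NK cells (52.1 and 32.1 CPM) and naive-type T cells (27.9 and 48.2 CPM). Among these 4 classes, each overlapped with the next in the order. B cells had 11.2 and 6.97 CPM and Arg1 macrophages 9.32 and 4.96 CPM. Microglia held 11 and 2 UMIs of Nt5e, or 1.81 and 0.479 CPM. In cells thinned to 3000 UMIs, 43.0% of control and 33.6% of metformin regulatory T cells had an Nt5e UMI, against 0.364% and 0.177% of microglia, which give the level that free RNA could reach. Without thinning the regulatory T cell shares were 62.5% and 55.8%. Thinning puts cells of all classes at 1 depth, and 251 and 253 regulatory T cells and 825 and 564 microglia were deep enough to enter it.

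**Figure D2:**
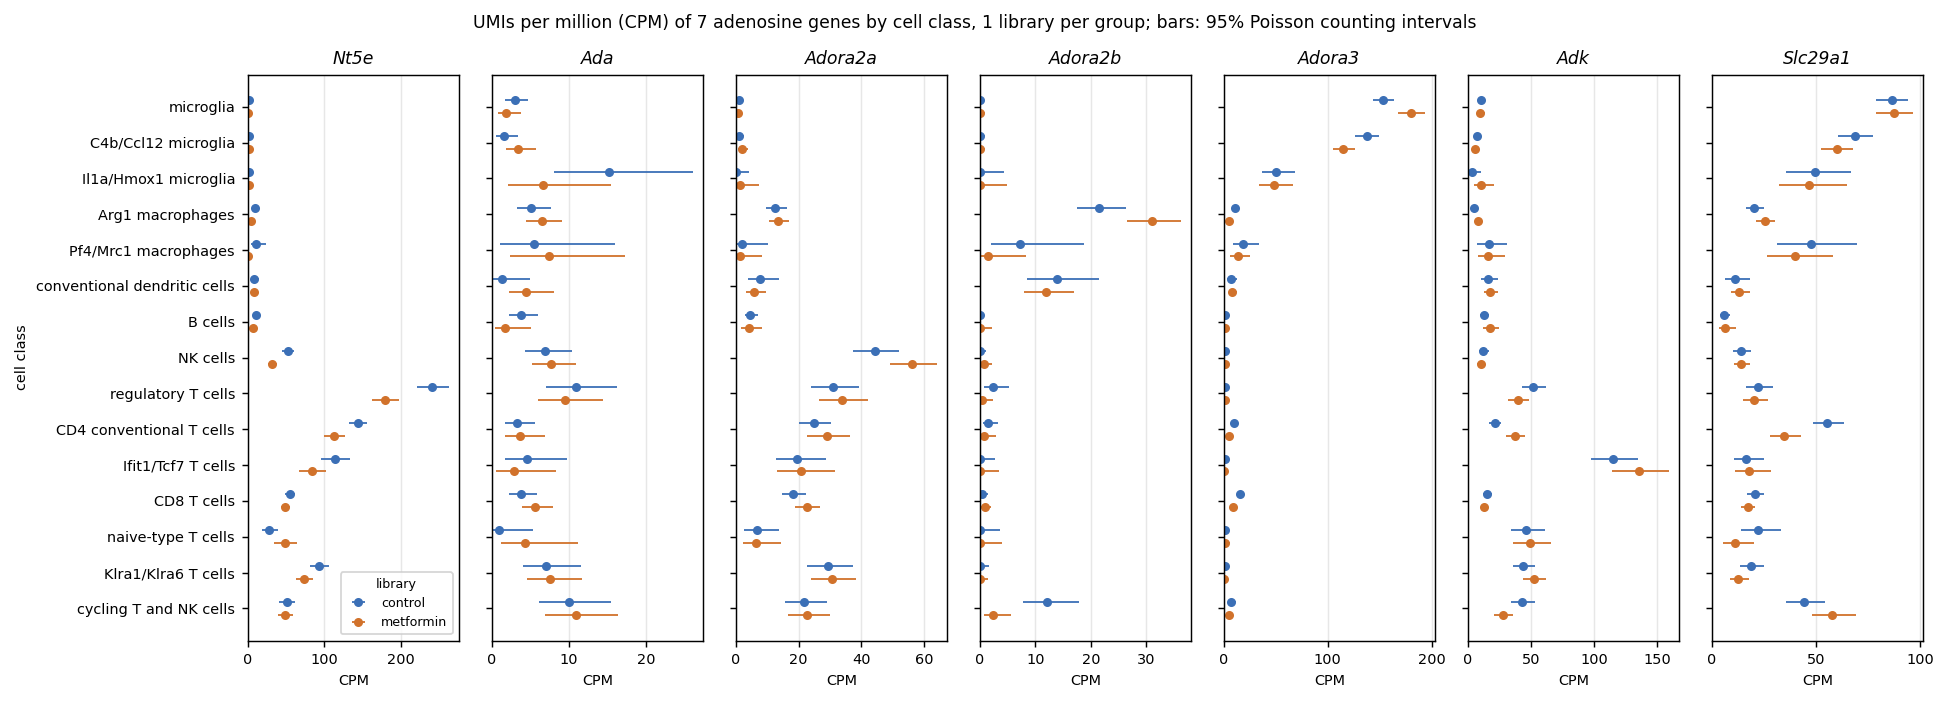
Level of each gene in CPM (horizontal axes, 1 panel per gene) in the 15 compared classes, control and metformin libraries as separate points with 95% Poisson bars for counting error. Nt5e is highest in regulatory T cells (241 and 180 CPM), Adora3 and Slc29a1 in microglia (153 and 180 CPM, and 86.2 and 87.3 CPM).

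Entpd1, which feeds AMP to the Nt5e product, had another distribution: microglia held 350 and 321 CPM, Arg1 macrophages 118 and 113 CPM, and regulatory T cells 90.0 and 101 CPM. At 3000 UMIs per cell an Entpd1 UMI was seen in 61.9% and 58.9% of microglia, and in 23.1% and 24.9% of regulatory T cells. Transcripts of both enzymes were seen in the same cell more often in regulatory T cells than in any other of the 15 compared classes. There, 31 of 251 control cells held both (12.4%, 8.55 to 17.1%, Clopper-Pearson), where independent detection of the 2 genes would give 9.94%. In the metformin library 20 of 253 cells held both (7.91%, 4.90 to 11.9%), where independence would give 8.37%. Both intervals included the share for independence, so an association between the 2 genes within regulatory T cells was not detectable at this depth. CD4 conventional T cells held both in 3.96% and 1.96% of cells, and CD8 T cells in 1.51% and 1.12%. Among the classes too small to compare, neutrophils held both in 4 of 35 control cells (11.4%) and 1 of 5 metformin cells. These shares grow with depth: without thinning, 27.8% and 26% of regulatory T cells held both.

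**Figure D3:**
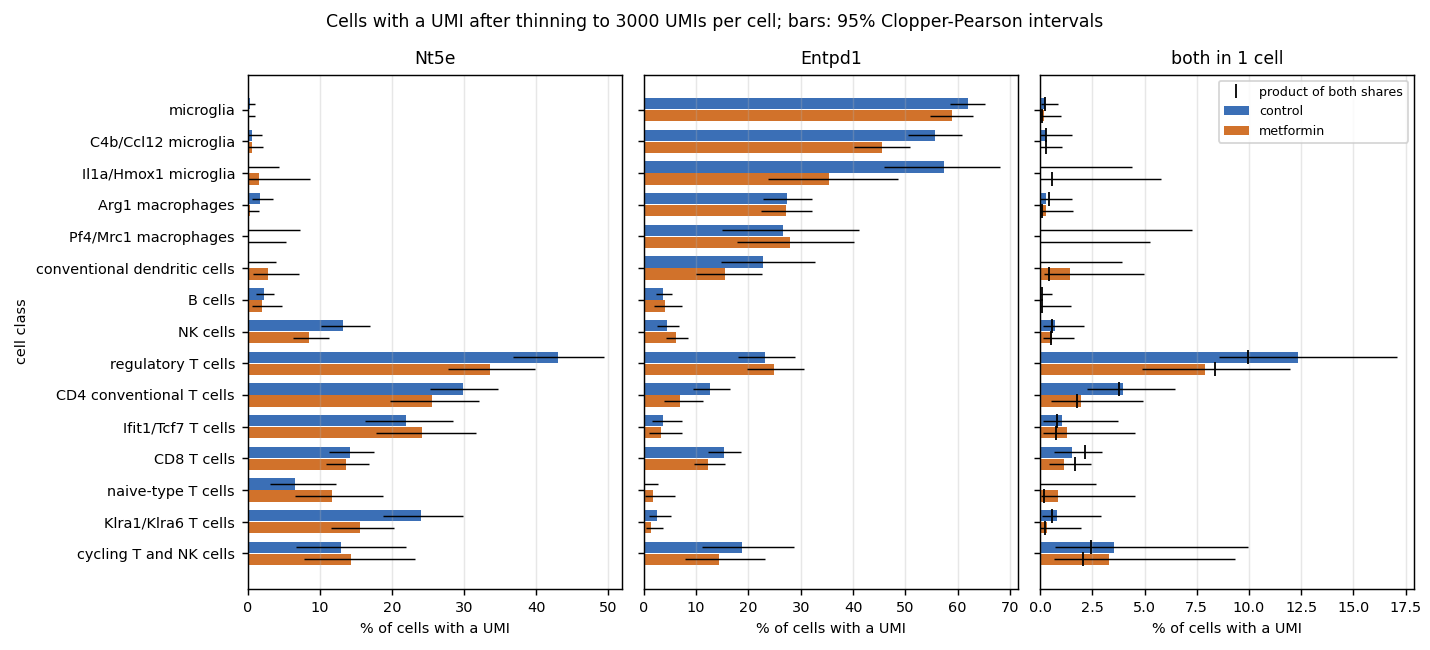
Share of cells (percent, horizontal bars) with a UMI of Nt5e, of Entpd1 and of both in each class and library after thinning to 3000 UMIs, with 95% Clopper-Pearson intervals as lines; a tick gives the product of the 2 single shares. In regulatory T cells the share with both (12.4% and 7.91%) has an interval that includes the tick (9.94% and 8.37%).

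Between the libraries Nt5e was lower with metformin in 9 of the 10 classes where it could be compared, and higher in naive-type T cells. With trimmed-mean (TMM) scaling the split was 8 lower and 2 higher. A ratio passed the size rule when 1 library had 20 UMIs, the ratio of metformin to control was at least 1.5 in either direction, and the interval left out 1. Arg1 macrophages passed with 42 and 26 UMIs (9.32 and 4.96 CPM, ratio 0.532, 0.313 to 0.888). NK cells passed with 166 and 129 UMIs (52.1 and 32.1 CPM, ratio 0.617, 0.486 to 0.781).

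The NK ratio was not the same in every NK cluster. Nt5e was lower with metformin in the clusters led by Spry2 (42.3 and 16.3 CPM), by Klra4 with Car2 (68.9 and 48.5 CPM) and by Gzmc (57.2 and 29.4 CPM), and higher in the cluster led by Klra4 with Ncr1 (12.6 and 27.7 CPM, from 6 and 18 UMIs). T cell markers were also lower in the metformin NK cells: the summed level of the 4 T markers was 229 CPM in control and 147 CPM in metformin, and that of the 5 regulatory T cell markers was 123 and 84.9 CPM. After removal of every NK cell with a T marker UMI (144 and 193 cells), the levels were 48.7 and 32.0 CPM and the ratio 0.658 (0.483 to 0.894). When NK cells were picked by marker gates and not by clusters, the ratio was 0.670 and no longer passed.

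Naive-type T cells passed in the other direction, with 29 and 44 UMIs (27.9 and 48.2 CPM, ratio 1.73, 1.06 to 2.87). That value was not stable: it was 1.65 and no longer passed without the richest cell of each library, and it turned to 0.800, from 12 and 8 UMIs, under a stricter cell filter. The ratios of the classes with the most Nt5e had intervals without 1 and stayed short of 1.5-fold. They were 0.745 (0.654 to 0.849) in regulatory T cells, 0.783 (0.676 to 0.906) in CD4 conventional T cells, 0.734 (0.558 to 0.961) in Ifit1/Tcf7 T cells and 0.788 (0.643 to 0.965) in Klra1/Klra6 T cells. The summed level of the 5 regulatory T cell markers in regulatory T cells was 5095 and 5156 CPM. These markers also served to name the class, and whether its make-up differed between the libraries was not tested. In CD8 T cells (0.887) and cycling T and NK cells (0.971) the intervals included 1.

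Ada (chr2:163726584-163750239, minus strand), whose product turns adenosine into inosine, was low in every class. The highest mean level of the 15 classes was in Il1a/Hmox1 microglia, at 15.3 and 6.64 CPM from only 13 and 5 UMIs. Regulatory T cells held 24 and 22 UMIs (11 and 9.50 CPM), cycling T and NK cells 20 and 23 (10.0 and 10.9 CPM), and NK cells 22 and 31 (6.90 and 7.72 CPM). Arg1 macrophages had 5.10 and 6.48 CPM and CD8 T cells 3.79 and 5.66 CPM. Counting intervals of neighbours in the order overlapped all the way down, although both values of the regulatory T cells lay above both of the next class, Klra1/Klra6 T cells (7.10 and 7.54 CPM). In the 5 comparable classes the ratios ran from 0.867 in regulatory T cells to 1.49 in CD8 T cells, and all 5 intervals included 1. For CD8 T cells that interval was 0.824 to 2.78, which leaves room for a more than 2-fold difference.

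Adk (chr14:21052574-21448569, plus strand), whose product returns adenosine to AMP, was highest, of the 15 compared classes, in the Ifit1/Tcf7 T cells, a cluster led by interferon-induced transcripts together with the stem-type T cell factor gene Tcf7. They held 153 and 143 UMIs, or 115 and 136 CPM. Klra1/Klra6 T cells came next with 43.9 and 52.4 CPM, and their values did not reach those of the Ifit1/Tcf7 T cells. Naive-type T cells (46.1 and 49.3 CPM) overlapped with regulatory T cells (51.6 and 39.7 CPM), and those with cycling T and NK cells (43.2 and 27.5 CPM). Mast cells, too few to compare, were higher still (124 and 329 CPM). An Adk UMI was present in 25% and 31.2% of thinned Ifit1/Tcf7 T cells. Microglia had 10.7 and 9.81 CPM and Arg1 macrophages 4.66 and 8.01 CPM, the lowest mean of the 15 classes. Conventional dendritic cells (16 and 17.6 CPM) lay above CD8 T cells on average (15.4 and 12.9 CPM), so myeloid classes were not all at the bottom.

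CD4 conventional T cells had more Adk in the metformin library, 84 and 91 UMIs from 401 and 209 cells (21.2 and 37.1 CPM, ratio 1.75, 1.29 to 2.39). The difference was seen in 1 of their 2 clusters. The cluster led by Ccl1 had 27.7 and 50.9 CPM, and the cluster led by Cd4 and Cxcr6 had 10.6 and 11.6 CPM. With each cluster at a fixed share of the class the ratio was 1.70. Cycling T and NK cells had less Adk with metformin, 86 and 58 UMIs (43.2 and 27.5 CPM, ratio 0.636, 0.448 to 0.897). That class also held macrophage markers in 1 library: their summed level was 1804 CPM in control and 101 CPM in metformin, while the NK marker sum was 856 and 2221 CPM. In this class 6 of 89 control cells and 1 of 94 metformin cells had more macrophage than T and NK marker UMIs, and the 6 cells held 21 of the 86 control Adk UMIs. Without them the Adk ratio was 0.726 (0.501 to 1.05) and no longer passed. The remaining 11 comparable classes had ratios with intervals that included 1, the largest being 1.72 (0.995 to 3.05) in Arg1 macrophages, from 21 and 42 UMIs. With TMM scaling (factor 0.986 for metformin over control) that interval left out 1 and the ratio passed the rule.

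Slc29a1 (chr17:45585200-45599606, minus strand), which encodes the main carrier of adenosine across the cell membrane, was highest in microglia, with 524 and 365 UMIs (86.2 and 87.3 CPM, ratio 1.01, 0.884 to 1.16). The C4b/Ccl12 microglia had 68.8 and 59.9 CPM and lay below both values of the class named microglia. Below them, cycling T and NK cells (44.2 and 57.7 CPM), Il1a/Hmox1 microglia (49.3 and 46.5 CPM), CD4 conventional T cells (55.4 and 34.6 CPM) and Pf4/Mrc1 macrophages (47.5 and 39.9 CPM) overlapped. Arg1 macrophages held 20.4 and 25.3 CPM, regulatory T cells 21.9 and 20.3 CPM, and CD8 T cells 20.8 and 17.1 CPM. B cells had the lowest mean level of the compared classes, 5.94 and 6.39 CPM.

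CD4 conventional T cells were the class whose Slc29a1 ratio passed the rule, with 220 and 85 UMIs (ratio 0.625, 0.481 to 0.806). The Ccl1 cluster had 63.5 and 34.0 CPM, against 42.3 and 35.9 CPM in the Cd4 and Cxcr6 cluster. Taken as a mean over cells the class ratio was 0.680 and no longer passed. In the other 14 classes the intervals included 1, with ratios from 0.496 (0.211 to 1.08) in naive-type T cells to 1.31 (0.985 to 1.74) in cycling T and NK cells. In the same Ccl1 cluster Nt5e was at 160 and 109 CPM, and in the Cd4 and Cxcr6 cluster at 118 and 120 CPM. The Ccl1 cluster had less Slc29a1 and Nt5e and more Adk in the metformin library than in the control library. The annotation places an antisense gene, Gm17080, across Slc29a1. It was counted at 1 and 4 UMIs, and whether the counting used strand is not given in the sources used here.

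Adora2a (chr10:75316877-75334784, plus strand), whose product is the high-affinity receptor that raises cyclic AMP, was seen among the compared classes mainly in T and NK cells. Mature dendritic cells, too few to compare, were higher than all of them (203 and 198 CPM). NK cells held 141 and 226 UMIs (44.2 and 56.3 CPM), regulatory T cells 68 and 78 (31.1 and 33.7 CPM), and Klra1/Klra6 T cells 66 and 77 (29.3 and 30.5 CPM). CD4 conventional T cells had 24.9 and 28.9 CPM, cycling T and NK cells 21.6 and 22.7 CPM, CD8 T cells 18.4 and 22.6 CPM, and Ifit1/Tcf7 T cells 19.6 and 20.9 CPM. NK cells had the highest value of the 15 compared classes in each library. Their counting interval overlapped that of regulatory T cells in control (37.2 to 52.2 and 24.1 to 39.4 CPM) and not in metformin (49.2 to 64.1 and 26.6 to 42.0 CPM). Arg1 macrophages had 12.6 and 13.5 CPM and B cells 4.62 and 4.07 CPM. Microglia held 6 and 3 UMIs, or 0.988 and 0.718 CPM. In thinned cells, 13.7% and 14.3% of NK cells had an Adora2a UMI, 11.6% and 13.4% of regulatory T cells, and 0.364% and 0.355% of microglia. Without thinning the NK shares were 25.8% and 31.0%.

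The ratio of Adora2a was above 1 in 8 of its 9 comparable classes and below 1 in B cells, from 0.880 to 1.27. None passed the rule. With the libraries clustered separately the split was 6 above and 3 below. In NK cells the interval left out 1 (1.27, 1.03 to 1.58), while in regulatory T cells it was 0.773 to 1.52. The NK clusters differed: Adora2a was at 24.7 and 41.6 CPM in the cluster led by Gzmc, and at 63.4 and 75.3 CPM in that led by Spry2. It was nearly level in the clusters led by Klra4 with Ncr1 (62.8 and 63.1 CPM) and by Klra4 with Car2 (56.8 and 57.1 CPM). The T cell markers, which were lower in the metformin NK cells, moved the other way. Their part in the Adora2a ratio was not tested beyond leaving out cells with a T marker UMI. After that, NK cells had 88 and 143 Adora2a UMIs (45.1 and 56.6 CPM). The NK interval above is for all NK cells, not for these.

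Adora2b (chr11:62248984-62266453, plus strand), whose product answers to higher adenosine levels, was highest, of the 15 compared classes, in Arg1 macrophages, with 97 and 163 of the 197 and 233 kept UMIs (21.5 and 31.1 CPM). Monocytes (35.1 and 36.9 CPM) and basophils (122 and 138 CPM, from 11 and 3 UMIs) were higher and too few to compare. Conventional dendritic cells held 20 and 29 UMIs (13.9 and 11.9 CPM), which did not reach the macrophage values, although the counting intervals overlapped in control. No UMI was counted in either library in 7 classes: microglia, C4b/Ccl12 microglia, Il1a/Hmox1 microglia, B cells, naive-type T cells, Ifit1/Tcf7 T cells and Klra1/Klra6 T cells. A count of 0 allows up to 3 UMIs, which in microglia is 0.494 CPM in control and 0.718 CPM in metformin. In thinned cells 6.28% and 7.20% of Arg1 macrophages had an Adora2b UMI, against 0 of 632 and 0 of 245 B cells.

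The Arg1 macrophage ratio for Adora2b was 1.44 (1.12 to 1.88), an interval without 1 and a size just short of the rule. With the libraries clustered separately it was 1.54 and passed. Cycling T and NK cells passed the rule in the other direction, with 24 and 5 UMIs (12.1 and 2.37 CPM, ratio 0.196, 0.0585 to 0.525). The 6 control cells with more macrophage than T and NK marker UMIs held 21 of those 24 UMIs. Without them the cycling class had 3 and 5 UMIs (1.75 and 2.37 CPM) and the ratio was 1.36 (0.264 to 8.73). The Adora2b transcripts of that class in control thus sat in cells with macrophage markers, and too few were left for a comparison.

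Adora3 (chr3:105870858-105908926, plus strand), whose receptor lowers cyclic AMP, was highest, of the compared classes, in microglia. Mast cells (59.3 and 124 CPM) and basophils (55.5 and 0 CPM, from 5 and 0 UMIs), too few to compare, also held it. Microglia held 930 and 753 UMIs (153 and 180 CPM), C4b/Ccl12 microglia 535 and 471 (137 and 115 CPM), and Il1a/Hmox1 microglia 43 and 36 (50.5 and 47.8 CPM). The values of each lay apart from those of the next, although the counting intervals of the first 2 overlapped in control. The Il1a/Hmox1 microglia lay above the Pf4/Mrc1 macrophages (18.3 and 13.3 CPM, from 10 and 9 UMIs). Arg1 macrophages had 11.1 and 5.15 CPM, which is 7.25% and 2.86% of the microglia level. In thinned cells, 36% and 36.7% of microglia had an Adora3 UMI, against 0.158% and 0.408% of B cells. Tmigd3 lies on the same strand across Adora3 and was counted at 35 and 35 UMIs over the kept cells. The last exon of Adora3, chr3:105907289-105908926, overlaps 0 Tmigd3 exons.

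The microglia classes moved in opposite directions between the libraries. The ratio was 1.18 (1.07 to 1.3) in microglia and 0.839 (0.739 to 0.951) in C4b/Ccl12 microglia, and neither reached 1.5-fold. The microglia value depended on how cells were assigned: it was 1.04 with the libraries clustered separately. With marker gates it was 0.922, for a gate on microglia markers that did not tell the microglia classes apart. Arg1 macrophages passed the rule, with 50 and 27 UMIs (ratio 0.464, 0.279 to 0.755). Their summed level of the 8 microglia markers moved the other way, from 492 CPM in control to 632 CPM in metformin, and P2ry12 in them was at 1.38% and 1.33% of its microglia level.

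Adora3 was also counted in T cells, mostly in 2 groups. CD8 T cells held 79 and 50 UMIs (15.8 and 8.57 CPM) and passed the rule, with a ratio of 0.544 (0.374 to 0.784). Of these, 67 and 42 UMIs were in the cluster led by Gzma (31.0 and 12.7 CPM). The other CD8 clusters had 6.50 and 4.70 CPM (led by Cd8a), 8.02 and 6.43 CPM (led by Gramd3), and 1 and 0 UMIs (led by Cd8b1). Of the 37 and 13 UMIs in CD4 conventional T cells, 34 and 13 were in the cluster led by Cd4 and Cxcr6 (22.5 and 15 CPM). NK cells held 4 and 5 UMIs and regulatory T cells 2 and 3. Cycling T and NK cells held 14 and 10 (7.03 and 4.73 CPM), too few to compare.

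The levels of Adora3 and of microglia markers in T cells were set against their levels in microglia. Whether microglia RNA free in the droplets gave the Adora3 UMIs of T cells was not tested. In the Gzma cluster Adora3 was at 20.3% of the microglia level in control and 7.04% in metformin. Of the 8 microglia markers, the highest there was Gpr34, at 2.81% and 2.87%, while P2ry12 was at 0.258% and 0.234%. In the Cd4 and Cxcr6 cluster Adora3 was at 14.7% and 8.35%, and Gpr34 at 1.67% and 1.97%. In B cells Adora3 was at 0.431% and 0.645% of the microglia level. The small cycling cluster led by Rrm2 (10 and 9 cells) had Adora3 at 19.3% and 0%, from 6 and 0 UMIs. There the markers were high in control too, with C1qa at 15.2% and 5.85% and Gpr34 at 11.2% and 1.23%. CD8 T cells without any UMI of the 8 microglia markers held Adora3 in 22 of 219 control cells (10.0%) and 12 of 174 metformin cells (6.90%). A cell without a marker UMI can still hold free RNA. With a marker UMI the shares were 10.4% and 7.35%. With CD8 T cells picked by marker gates, the ratio between the libraries was 0.717 and no longer passed.

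**Figure D4:**
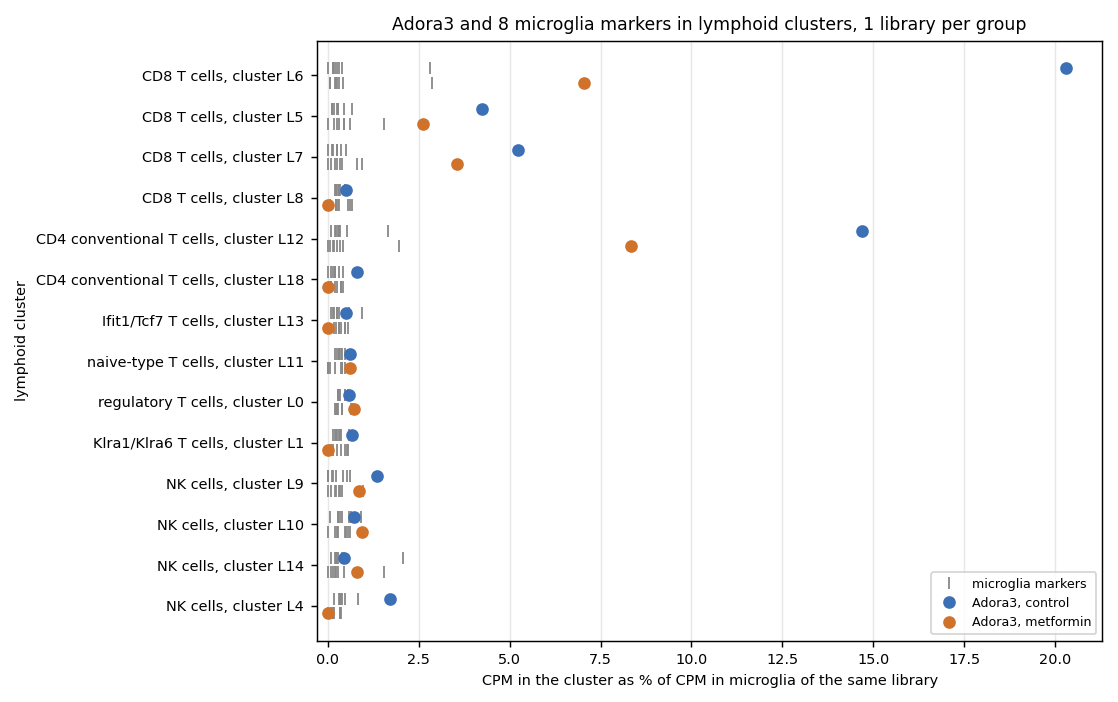
Level of Adora3 and of 8 microglia markers in lymphoid clusters as a percent of their level in microglia of the same library (horizontal axis, linear); circles are Adora3, blue for control and orange for metformin, and grey ticks are the markers. In cluster L6 (led by Gzma) Adora3 is at 20.3% in control and 7.04% in metformin, and in L12 (led by Cd4 and Cxcr6) at 14.7% and 8.35%, while Gpr34, the highest marker in both, stays at or below 2.87%.

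Taken over all genes and classes, 62 pairs could be compared between the libraries, with 29 ratios above 1 and 33 below. The interval left out 1 in 17, and 9 passed the size rule. Of all genes eligible in the same 15 classes, 6724 of 116728 pairs passed (5.76%). Pairs of 1 gene share their libraries, and the members' share was not tested against that of all genes. By class, 2 of 7 comparable members passed in Arg1 macrophages (6.99% of all eligible genes passed there), 2 of 5 in CD4 conventional T cells (6.0%), 2 of 6 in cycling T and NK cells (11.8%), 1 of 6 in CD8 T cells (4.5%), 1 of 5 in NK cells (3.43%) and 1 of 3 in naive-type T cells (5.0%). None passed of the 5 in regulatory T cells (5.23%), the 3 in microglia (2.47%) or the 3 in C4b/Ccl12 microglia (5.42%). None passed either of the 4 each in B cells (4.49%), Ifit1/Tcf7 T cells (4.31%), Klra1/Klra6 T cells (4.52%) and conventional dendritic cells (8.21%), the 2 in Il1a/Hmox1 microglia (8.33%) or the 1 in Pf4/Mrc1 macrophages (8.77%).

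**Figure D5:**
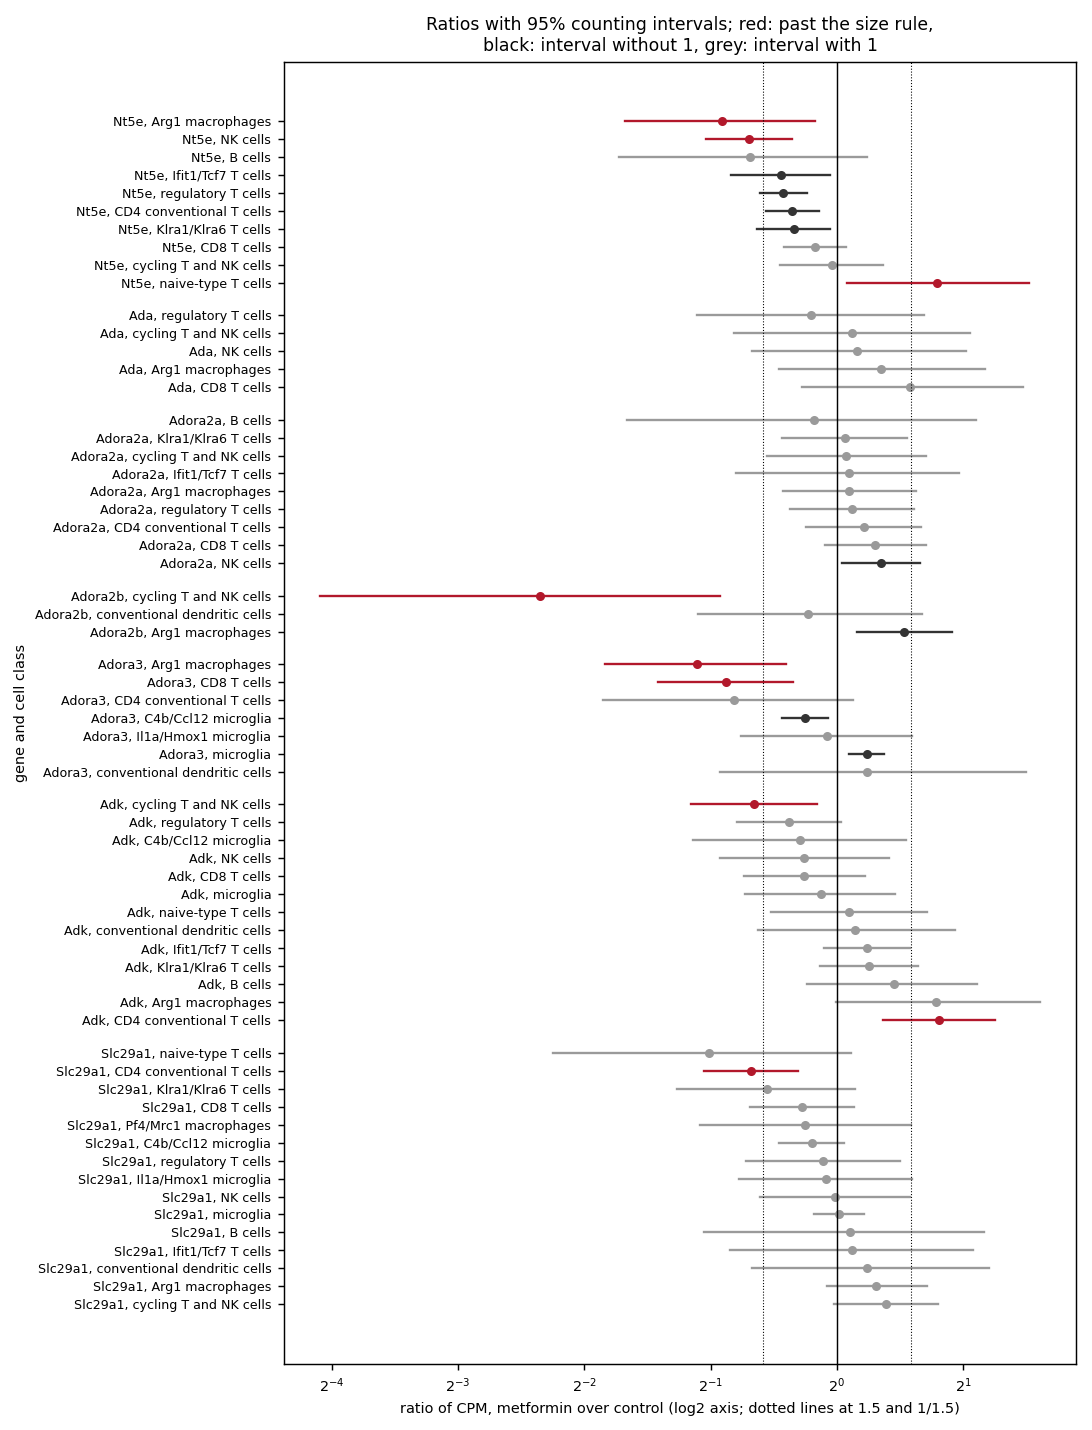
Ratio of the metformin to the control CPM (log2 axis) for the 62 comparable pairs of gene and class, with 95% counting intervals; red points pass the size rule, black points have an interval without 1 only, grey points an interval with 1. The 9 red points include Adora3 in Arg1 macrophages (0.464) and CD8 T cells (0.544) and Adk in CD4 conventional T cells (1.75).

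A wider list of 54 genes of adenosine and ATP handling and cyclic AMP signalling, the 7 among them, gave 426 eligible pairs. Of these 35 passed the rule (8.22%), 7 higher and 28 lower with metformin, beside 5.76% of all pairs, 2640 higher and 4084 lower. Without the 7 genes, 26 of 364 pairs of the list passed. In no class were 12 of the 54 eligible. In CD4 conventional T cells, 2 genes were higher and 4 lower of 33, beside 107 higher and 423 lower of all 8832 genes (6.0%), with a median log2 ratio of -0.06 against -0.07 over all genes. There, beside Adk, Enpp1, a surface enzyme that splits ATP, was higher, at 1.71 times its control level. Entpd1 (0.588), Cd38 (0.565), an NAD-consuming surface enzyme, and Panx1 (0.586), an ATP release channel, were lower beside Slc29a1. In regulatory T cells 0 were higher and 4 lower of 33, beside 126 higher and 297 lower of all 8095 genes (5.23%). The 4 were P2rx7, an ATP-gated channel (0.658), Xdh, which oxidises purines to urate (0.334), the lysosomal nucleoside transporter gene Slc29a3 (0.489) and the phosphodiesterase gene Pde7a (0.646). P2rx7 was also lower in CD8 T cells (11.8 and 5.66 CPM, ratio 0.480). In Arg1 macrophages the concentrative nucleoside transporter gene Slc28a2 was higher (6.66 and 11.6 CPM, ratio 1.75) and Pde4d lower (0.530). In microglia 0 of 30 passed, beside 2.47% of all genes, and the median log2 ratio was -0.01 for the list and -0.01 for all genes. Adora1, the gene of the remaining adenosine receptor, had 74 and 59 UMIs in all kept cells, with its highest level in C4b/Ccl12 microglia (46 and 33 UMIs, 11.8 and 8.06 CPM).

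The genes most like each member over the 15 classes were taken by Pearson's r of log2(CPM + 5), among 9579 genes with enough UMIs. The classes share 2 libraries and many genes follow the split between myeloid and lymphoid cells, so r is given as a description. For Nt5e they were Gata3 (r = 0.96), Myh9 (0.96) and Tox (0.95), and for Adora2a AW112010 (0.96), Dok2 (0.95) and D16Ertd472e (0.94). Gata3, Myh9 and D16Ertd472e were highest in regulatory T cells, and AW112010 and Dok2 in NK cells. For Adora3 they were Sort1, Atraid and Adgrg1 (0.96 each), and for Slc29a1 Cmtm4 (0.92), Slc2a8 (0.90) and Cdk5rap1 (0.90), all 6 highest in microglia. For Adora2b they were Gpr141, AI839979 and Gda (0.96 each), all highest in Arg1 macrophages, though Adora2b itself was measurable in only 3 classes. For Adk they were Trat1 (0.91), Setd4 (0.91) and Tasp1 (0.89). Ada had weaker neighbours, Ing2 (0.84), Jpt1 (0.83) and Ppig (0.82), and was measurable in 5 classes. Among the 7 genes themselves, Nt5e followed Adora2a (r = 0.87) and Adk (0.77), Adora3 followed Slc29a1 (0.80), and Nt5e and Adora3 ran opposite to each other (-0.72).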

How the data were processed

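Single-cell RNA was measured in 2 libraries of sorted CD45-high cells from mouse brain tumours. The authors deposited 1 matrix of raw UMI counts per library. Cell Ranger, Seurat and the mm10 build are named per the submitters' processing notes, and matrix software 3.0.0 per the file headers. The aligner settings, annotation and filters are not given in the sources used here. Each deposited count is 1 UMI of a gene in a barcode.

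Barcodes with under 300 genes (92 control, 151 metformin) or over 10% mitochondrial UMIs (727 and 856) were left out. Doublets were marked with Scrublet in scanpy 1.11.5 at an expected rate of 5%, and the 59 and 36 cells marked (1.09% and 0.782%) were left out. Of 9 barcodes in both libraries, 8 were kept in both. Cells were clustered together (2000 variable genes without the pathway list, 30 components, 15 neighbours, Leiden resolution 1.0, and 1.5 within lymphoid cells). Clusters were named from marker lists.

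UMIs were summed per class and library, with exact Poisson intervals for CPM, exact conditional intervals for ratios and Clopper-Pearson intervals for shares, all at 95% and for counting error only. Shares of cells with a UMI were taken after thinning each cell to 3000 UMIs, without shallower cells. List medians used log2 ratios with 0.5 UMI added. TMM factors came from edgeR 4.0.16, and no edgeR test was run. Gene positions are from GENCODE M21, which held 30934 of the 31053 gene IDs, and upstream sequences from RefSeq on GRCm38.p6. The interval and rule steps were tested on simulated data.

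The 7 members were always named. Of the pathway list, genes past the size rule and the highest gene of each role were eligible to be named, and the 3 genes most like each member. The members and lists were chosen with earlier results of these data known. Depth limits all values: a count of 0 allows up to 3 UMIs.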

Additional observations from a re-analysis of the deposited data

Results flagged for a closer look

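The ratio of metformin to control ran in opposite directions in different classes for 4 genes, in each case with intervals that left out 1. None of these differences between classes was tested, since each class has 1 library per group. For each of the 4 genes, 1 side of the contrast depended on the processing or on a few cells. The Nt5e value in naive-type T cells reversed under the stricter cell filter. The Adora3 value in microglia came closer to 1 with the libraries clustered separately. The interval for Adk in cycling T and NK cells included 1 without the cells rich in macrophage markers. For Nt5e the ratio was 1.73 in naive-type T cells, against 0.532 in Arg1 macrophages, 0.617 in NK cells, 0.734 in Ifit1/Tcf7 T cells, 0.745 in regulatory T cells, 0.783 in CD4 conventional T cells and 0.788 in Klra1/Klra6 T cells. For Adora2b it was 1.44 in Arg1 macrophages and 0.196 in cycling T and NK cells, where it was 1.36 (0.264 to 8.73) without the 6 control cells and 1 metformin cell with more macrophage than T and NK marker UMIs. For Adora3 it was 1.18 in microglia, against 0.839 in C4b/Ccl12 microglia, 0.544 in CD8 T cells and 0.464 in Arg1 macrophages. For Adk it was 1.75 in CD4 conventional T cells and 0.636 in cycling T and NK cells.

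Ada was higher in 2 clusters that received no class name and entered no comparison than in any compared class. A cluster of 22 control and 27 metformin cells led by Mgp, Ptgds and Col1a2 held Ada at 51.8 and 53.6 CPM (25 and 35 UMIs). A cluster of 21 and 12 cells led by Gh, Igha and Ttr held it at 29.1 and 38.2 CPM (18 and 7 UMIs).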

How the results depend on the processing

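The 62 ratios were recomputed under up to 12 alternatives, 556 values in all, of which 531 kept their direction, their side of the size rule or, for uncalled ratios, a value within counting error. Another 8 moved, 8 lost the rule, 7 gained it and 2 reversed. Of the 7 that gained it, 4 did so with each library clustered on its own, Adora2b in Arg1 macrophages among them. Another 1 each gained it with TMM scaling (Adk in Arg1 macrophages), under the stricter cell filter and without the richest cell. Of the 8 that lost it, 2 did so without the richest cell. Both that reversed had passed the rule, and changes of direction in uncalled ratios were not counted as reversed. Slc29a1, for example, was higher with metformin in 6 classes and lower in 9, but 9 and 6 under the stricter cell filter. The Nt5e ratio in naive-type T cells reversed to 0.800 under the stricter cell filter, and was 1.48 with each library clustered on its own and 1.65 without the richest cell. The Adora2b ratio in cycling T and NK cells reversed to 1.36 without cells rich in macrophage markers, and was 0.156 without the richest cell. Marker gates took Nt5e in NK cells to 0.670 and Adora3 in CD8 T cells to 0.717. A mean over cells took Adk in cycling T and NK cells to 0.826 and Slc29a1 in CD4 conventional T cells to 0.680, and Adk in the cycling class was 0.726 without cells rich in macrophage markers. For all but the removal of marker-bearing or richest cells, the cause was not tested. Requiring a ratio of 2 left 2740 of 6724 calls over all genes and 9 of 35 in the pathway list. Regulatory T cells with both Nt5e and Entpd1 made up 6.97% (2000 UMIs), 20.6% (5000) and 27.8% (no thinning) in control, and 13.9% (5000) and 26% (no thinning) in metformin, since deeper cells show more genes. Leaving out marker-bearing cells and holding clusters at fixed shares were chosen after seeing the data. No paired analysis was possible because each group is 1 library, and for the same reason no replicate could be left out.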

Other observations

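Several classes were too small to compare but held high levels of single members. Mature dendritic cells (43 control and 70 metformin cells), which carry antigen towards lymph nodes, held Adora2a at 203 and 198 CPM from 71 and 125 UMIs. An Adora2a UMI was present in 74.4% and 81.4% of them, and the level was above that of NK cells (44.2 and 56.3 CPM). Mast cells (14 and 14 cells) held Adora3 at 59.3 and 124 CPM (11 and 26 UMIs) and Adk at 124 and 329 CPM (23 and 69 UMIs). Basophils (19 and 3 cells) held Adora2b at 122 and 138 CPM, from 11 and 3 UMIs. Monocytes (86 and 45 cells) held Adora2b at 35.1 and 36.9 CPM (25 and 16 UMIs) and Slc29a1 at 61.8 and 36.9 CPM (44 and 16 UMIs). Plasmacytoid dendritic cells (20 and 35 cells) held Adk at 73.5 and 98.6 CPM (19 and 48 UMIs). Gamma-delta T cells (59 and 46 cells) held Nt5e at 78.1 and 91.6 CPM (31 and 28 UMIs), with 3 control UMIs each of Ada, Adora2a and Adk.

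The barcodes that failed the gene or mitochondrial filter (739 and 867, some of them failing both) held Nt5e at 131 and 101 CPM (258 and 247 UMIs) and Adora2a at 38.2 and 35.6 CPM (75 and 87 UMIs). Both levels were above the mean over kept cells, 47.8 and 38 CPM for Nt5e and 15.7 and 21 CPM for Adora2a.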
